A study of Mus musculus and Homo sapiens with 4 samples.

Results

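The transcripts of 10 extracellular matrix proteoglycan genes, Lum, Dcn, Bgn, Fmod, Ogn, Prelp, Aspn, Podn, Vcan and Hspg2, were examined in mouse embryonic fibroblasts (MEFs). They were chosen by gene symbol, and each of the 10 was found once among the 23329 gene entries of the fibroblast libraries. The fibroblasts were lines derived from C57BL/6 embryos at day E13.5, either wild type (WT) or NEAT1 knockout (KO), and were grown in medium with serum and used at passage 2 to 3. Each genotype was represented by 1 library of poly-A RNA, and the labels give neither the number of embryos behind a line nor the structure of the knockout allele. The series holds 4 libraries in all, the other two being human VCaP prostate cancer cells with and without overexpressed ERα. The comparison of KO with WT asks which transcripts differ between fibroblasts with and without the long non-coding RNA Neat1. With 1 library per genotype no spread between replicates exists, so no test between genotypes was made and every difference below is one between these 2 libraries.

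Proteoglycans are core proteins that carry sulphated sugar chains, the glycosaminoglycans. Small leucine-rich proteoglycans (SLRPs) have a short, curved core protein built of leucine-rich repeats, bind to collagen fibrils and influence how thick and how evenly spaced the fibrils become, and several of them also bind growth factors of the TGF-β family. Versican, the product of Vcan, is a large chondroitin sulphate proteoglycan that binds hyaluronan, and perlecan, the product of Hspg2, is a large heparan sulphate proteoglycan of basement membranes. Fibroblasts are a main source of these proteins in connective tissue.

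The values are RPKM, which scale reads by transcript length and by sequencing depth, so that levels can be compared between genes. Differences are given as log2((KO RPKM + 1)/(WT RPKM + 1)), called the log2 ratio, and log2 ratios above 1 or below -1, a 2-fold difference after 1 is added to both values, were counted. Lum and Dcn had a log2 ratio above 1, Ogn had one below -1, and 7 members lay in between. Among all entries 0.977% had a log2 ratio above 1 and 0.334% had one below -1. Among the 6886 entries at least as abundant on average as the least abundant member these shares were 2.03% and 0.465%. At a threshold of 2 no member was counted, beside 0.223% of all entries above 2 and 0.0171% below -2. At a threshold of 0.58 there were 5 members above and 1 below, beside 2.4% and 2.58% of all entries. The median log2 ratio of the 10 members was 0.44, beside a median of 0.00 over all entries and of -0.05 over those 6886. In these values 7 members were higher and 3 lower in KO, although Bgn had a log2 ratio of 0.00 after quantile normalization and Hspg2 one of 0.01 after centring on the median of expressed entries. The share of all entries higher in KO was not computed, here or for the counts of direction below. Since the median over those 6886 entries was below 0, at least as many of them were lower in KO as higher.

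**Figure D1:**
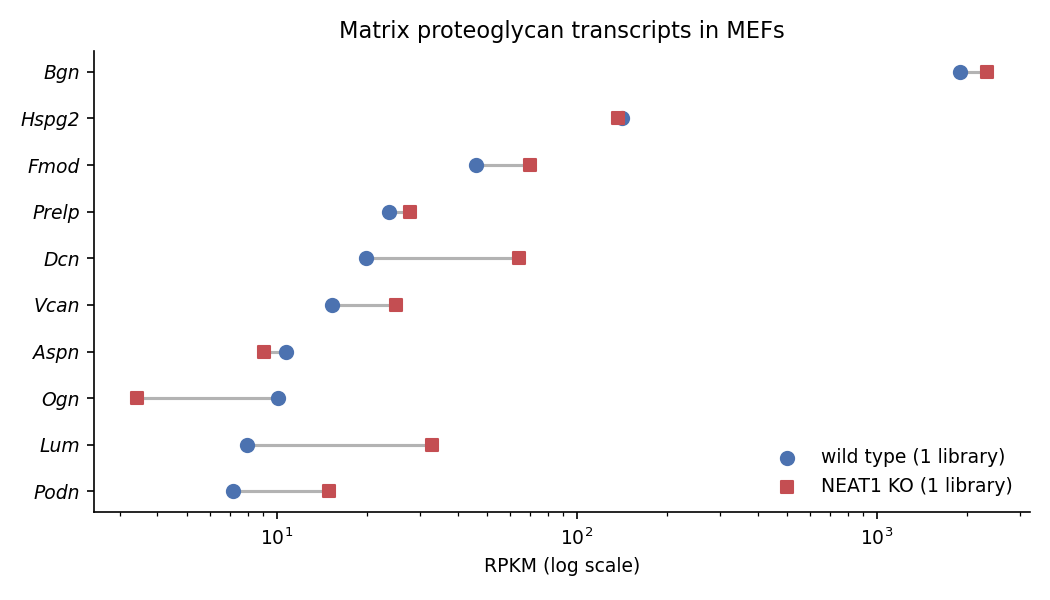
RPKM of the 10 proteoglycan transcripts on a log axis, with 1 circle for the WT library and 1 square for the KO library of MEFs joined by a line. Bgn stood far above the rest (1887 and 2332 RPKM), Lum and Dcn moved furthest upward and Ogn furthest downward.

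Neat1 itself had 29.5 RPKM in WT and 2.01 RPKM in KO, in the direction of the labels. The number of reads is not given, but low values recurred in steps that 1 read would make. For 3320 entries with low but non-zero values in each library (under 0.5 RPKM), the commonest ratio of KO to WT values was 1.06 (124 entries), followed by 0.53 (82 entries). Read against exon lengths, the commonest step corresponded to about 31400000 reads in WT and 29600000 in KO. Only 33.9% and 36.8% of the low values checked lay within 0.05 of a whole step, and 51.2% and 54.3% did so when steps of 0.5 were allowed too. If the smaller step is 1 read, these totals and the reads given below for single genes are 2 times as large and the counting intervals narrower, so all of them are rough estimates. Over the 10888 entries that reached 1 RPKM in WT and in KO alike, the median log2 ratio was -0.06. The libraries differed in other respects as well. Xist, which is expressed from the inactive X chromosome of female cells, had 28.6 RPKM in WT and 0.05 RPKM in KO, while the Y-linked gene Ddx3y had 0.0174 and 4.18 RPKM and Eif2s3y was listed at 0 in WT and had 6.30 RPKM in KO. Of 12 interferon-response genes 11 had a log2 ratio above 1 (median 3.42). Of 12 proliferation genes 4 had a log2 ratio below -1 and 0 were higher in KO (median -0.87). The part of these differences in the values of the proteoglycans was not tested, and genotype, embryo sex, growth state and line cannot be told apart in this design.

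Among the SLRPs of class I, Bgn was by far the most abundant member. Biglycan, its product, carries chondroitin or dermatan sulphate chains and can also act as a signal through Toll-like receptors. Bgn lies on chromosome X, from 73483635 to 73495936 of mm10, and had 1887 RPKM in WT and 2332 RPKM in KO. It ranked 9 among all entries in both libraries and held 87.0% of the summed RPKM of the 10 members in WT and 85.9% in KO. Its log2 ratio was 0.31, which falls to 0.00 when the libraries are quantile normalized, since its rank was the same in both. Because Bgn is X-linked, the Xist and Y-linked values above belong beside it.

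Dcn encodes decorin, a class I proteoglycan with a single glycosaminoglycan chain that binds collagen fibrils and TGF-β. Dcn (chromosome 10, 97479500 to 97518162, + strand) had 19.8 RPKM in WT and 64.0 RPKM in KO. The log2 ratio was 1.64, the rank 92 from the top of all entries. By the estimated depth about 1206 reads in WT and 3673 in KO lie behind these values. The unadjusted ratio of KO to WT was 3.23, with a 95% interval of 3.02 to 3.45 (exact Clopper-Pearson), which covers counting error only. Its rank by level went from 3331 in WT to 978 in KO.

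Aspn, the third class I member, encodes asporin, which has a run of aspartate residues in place of a site for a sugar chain. Aspn (chromosome 13, 49544443 to 49567562, + strand) had 10.7 RPKM in WT and 9.04 RPKM in KO (log2 ratio -0.23). The class I genes therefore did not move together in these libraries. Dcn was more than 3 times as high in KO, Bgn was 23.6% higher and Aspn was slightly lower.

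Lum, Fmod and Prelp are the class II members, and the products of Lum and Fmod can carry keratan sulphate. Lumican, the product of Lum, is best known from the cornea, where it keeps collagen fibrils thin and evenly spaced. Lum (chromosome 10, 97565501 to 97572703, + strand) had 7.98 RPKM in WT and 33.0 RPKM in KO, the largest difference among the 10 members. Its log2 ratio was 1.92, rank 60 from the top of all entries. About 612 reads in WT and 2391 in KO lie behind it, and the unadjusted ratio of 4.14 had a 95% counting interval of 3.79 to 4.53. Lum was the second lowest member in WT and ranked above Prelp, Vcan, Aspn and Ogn in KO.

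Fibromodulin, the product of Fmod, acts in tendon collagen fibril assembly. Fmod (chromosome 1, 134037515 to 134048277, + strand) had 46.3 RPKM in WT and 69.9 RPKM in KO (log2 ratio 0.58). Prelp encodes a proline- and arginine-rich leucine-rich repeat protein that binds heparan sulphate and links basement membrane to collagen. Prelp (chromosome 1, 133910304 to 133921401, - strand) had 23.6 RPKM in WT and 27.7 RPKM in KO (log2 ratio 0.22). All 3 class II genes were higher in KO, by amounts from 17.4% for Prelp to 314% for Lum.

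Ogn and Podn represent the classes III and V. Ogn encodes osteoglycin, also called mimecan, a small SLRP of bone and other connective tissue. Ogn (chromosome 13, 49608071 to 49624500, + strand) had 10.1 RPKM in WT and 3.41 RPKM in KO. With a log2 ratio of -1.33 it ranked 22 from the bottom of all entries, and it was the only one of the 10 past a 2-fold difference in the downward direction. About 813 reads in WT and 259 in KO lie behind these values, and the unadjusted ratio of KO to WT was 0.338, with a 95% counting interval of 0.292 to 0.389. Podn encodes podocan, which has more leucine-rich repeats than the other SLRPs. Podn (chromosome 4, 108014793 to 108032090, - strand) had 7.11 RPKM in WT and 14.9 RPKM in KO. Its log2 ratio was 0.97, just short of 1, and it exceeded 1 with a pseudocount of 0.1 (1.06), after centring (1.03) and after quantile normalization (1.02).

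Vcan and Hspg2 are the large proteoglycan genes. Vcan (chromosome 13, 89655310 to 89742512, - strand), whose entry merges 5 RefSeq transcripts, had 15.3 RPKM in WT and 24.9 RPKM in KO (log2 ratio 0.67). Splice forms of versican carry different numbers of chondroitin sulphate chains, and the merged entry does not separate them. Hspg2 (chromosome 4, 137468803 to 137570630, + strand), the second most abundant member, had 141 RPKM in WT and 137 RPKM in KO. Its log2 ratio was -0.05 and became 0.01 after centring, so no direction is given for it. The counting interval of the unadjusted ratio of Hspg2 was 0.958 to 0.980, which again leaves out any difference between cultures.

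**Figure D2:**
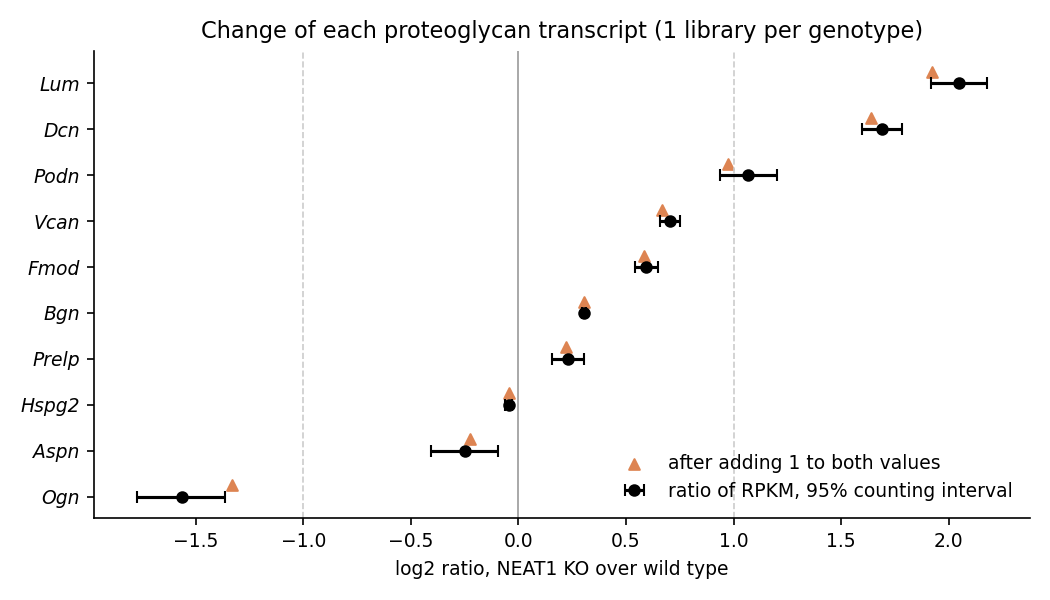
Log2 ratio of KO over WT RPKM for each proteoglycan; black circles are the ratio of the values as deposited with a 95% interval from counting error alone, orange triangles the ratio after 1 is added to both values, and dashed lines mark -1 and 1. Lum (1.92) and Dcn (1.64) lie beyond 1 and Ogn (-1.33) beyond -1 after adding 1, while Podn (0.97) sits just inside; Bgn falls to 0.00 after quantile normalization and Hspg2 changes sign after centring.

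Ordered by level, the members ran in WT from Bgn over Hspg2, Fmod, Prelp, Dcn, Vcan, Aspn, Ogn and Lum to Podn. In KO the order was Bgn, Hspg2, Fmod, Dcn, Lum, Prelp, Vcan, Podn, Aspn and Ogn. The top 3 places were the same in both libraries, and the changes of place lay below them. The 10 transcripts summed to 2169 RPKM in WT and 2716 RPKM in KO, that is 0.637% and 0.769% of the RPKM sum over all entries. Without Bgn the sums were 282 and 384 RPKM. With 1 library per genotype, neighbouring places in these orders cannot be set against a spread. Since these are bulk libraries, a different share of cells expressing a gene and a different level per cell cannot be told apart.

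**Figure D3:**
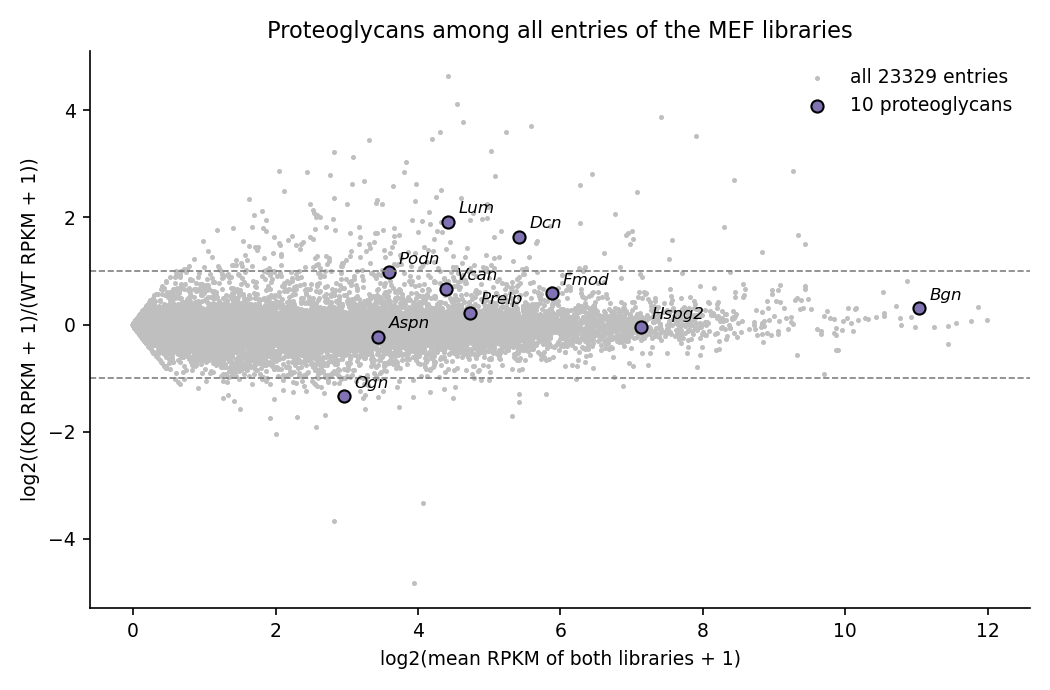
Log2 ratio of KO over WT against log2(mean RPKM + 1) for all 23329 entries (grey) and the 10 proteoglycans (purple), with dashed lines at -1 and 1. Lum and Dcn lie in the sparse upper fringe and Ogn in the lower one at their levels, whereas Hspg2, Prelp, Aspn and Bgn sit within or near the grey band; the sign of Hspg2 flips after centring and Bgn is at 0.00 after quantile normalization.

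Of the 10 genes, 6 lie in 3 groups of neighbouring SLRP genes, so position was examined next. Dcn and Lum are adjacent on chromosome 10, with 47.3 kb between them, and both had a log2 ratio above 1. The same neighbourhood holds the class II gene Kera, which encodes the corneal keratocan and was listed at 0 in both libraries, and Epyc, which encodes the cartilage SLRP epiphycan and had 0.0369 RPKM in WT and 0.0196 RPKM in KO. On chromosome 13, Aspn, Omd and Ogn follow each other. Omd, which encodes osteomodulin of mineralized tissue, had 0.270 and 0.0644 RPKM, and Ecm2 on the other side of Aspn had 0.138 and 0.159 RPKM. Ogn and Aspn lie 40.5 kb apart, yet their log2 ratios were -1.33 and -0.23. Both Ogn and Aspn overlap Cenpp, which is annotated on the opposite strand and had 1.08 and 0.909 RPKM. No strand-specific kit is named for these libraries, so reads of overlapping genes may not be separable by strand. On chromosome 1, Prelp and Fmod lie 116 kb apart. Optc, which encodes opticin of the eye and lies 2.31 kb from Prelp, had 0.685 and 0.831 RPKM. The antisense gene Gm15851 overlaps Prelp and Gm4117 overlaps Vcan, and the same limit holds there. Hapln1, the link protein gene next to Vcan, had 0.0441 RPKM in WT and 0.0393 RPKM in KO. Expressed genes of other families near the SLRP groups varied as well. Btg2, next to Fmod, had 27.6 and 46.3 RPKM (log2 ratio 0.72) and Nol8, next to Ogn, 4.90 and 3.02 RPKM (-0.55). Iars (27.3 and 23.9 RPKM, -0.19) and Bicd2 (30.1 and 29.8 RPKM, -0.01) differed less.

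**Figure D4:**
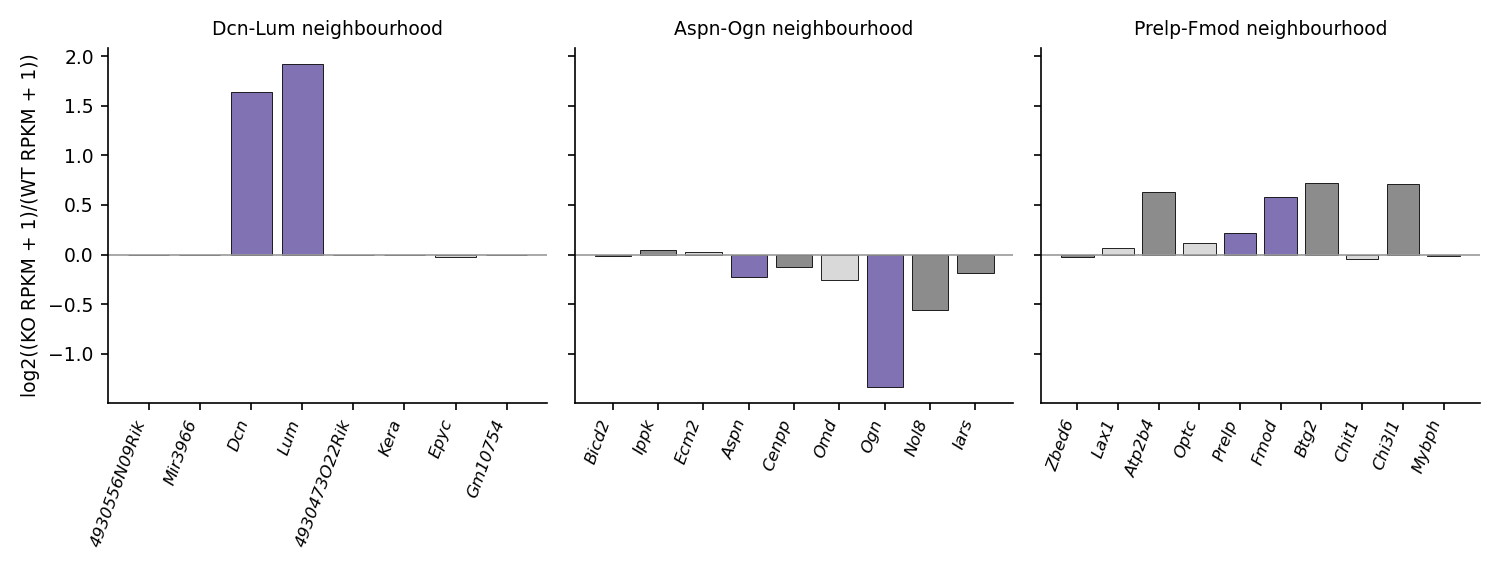
Log2 ratio of KO over WT for entries in chromosomal order around 3 groups of SLRP genes; purple bars are members, dark grey bars other entries with at least 1 RPKM in 1 library and light bars entries below that. Dcn and Lum are both high with silent neighbours, and Ogn (-1.33) stands apart from Aspn (-0.23). Among expressed neighbours, Btg2 next to Fmod is at 0.72 and Nol8 next to Ogn at -0.55, whereas Iars (-0.19) and Bicd2 (-0.01) are nearer the zero line.

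The promoters of the neighbouring pair with unlike ratios, Ogn and Aspn, and of the pair with the highest levels, Bgn and Hspg2, are shown so that their base composition can be compared. Each is the 250 bases before the RefSeq start site in GRCm38.p6, the assembly of mm10, which lies 34 bases before the start of the entry for Bgn, 56 before it for Ogn and at it for Aspn and Hspg2, 5′ to 3′ on the strand of the gene. Capitals mark the letters of a TATA box (TATAAA) or a GC box (GGGCGG). They were searched on both strands and at any place in the window, and neighbouring matches may run together. RefSeq promoters were matched for 8 of the 10 members, all but Lum and Dcn.
Ogn, chr13:49607765-49608014, + strand: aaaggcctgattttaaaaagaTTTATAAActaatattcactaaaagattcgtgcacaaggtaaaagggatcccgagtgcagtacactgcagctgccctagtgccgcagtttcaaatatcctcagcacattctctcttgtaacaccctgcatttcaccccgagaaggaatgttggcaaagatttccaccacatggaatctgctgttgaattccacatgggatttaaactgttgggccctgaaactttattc
Aspn, chr13:49544193-49544442, + strand: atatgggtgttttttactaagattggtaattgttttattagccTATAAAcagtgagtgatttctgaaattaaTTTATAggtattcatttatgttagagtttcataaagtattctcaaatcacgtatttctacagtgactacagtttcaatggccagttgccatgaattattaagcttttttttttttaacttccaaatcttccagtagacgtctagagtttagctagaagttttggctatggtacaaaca
Bgn, chrX:73483351-73483600, + strand: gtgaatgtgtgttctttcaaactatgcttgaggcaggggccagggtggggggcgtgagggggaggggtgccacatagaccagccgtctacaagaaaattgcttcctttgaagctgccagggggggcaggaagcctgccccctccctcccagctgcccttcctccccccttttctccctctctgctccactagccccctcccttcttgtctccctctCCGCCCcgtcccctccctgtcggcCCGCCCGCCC
Hspg2, chr4:137468553-137468802, + strand: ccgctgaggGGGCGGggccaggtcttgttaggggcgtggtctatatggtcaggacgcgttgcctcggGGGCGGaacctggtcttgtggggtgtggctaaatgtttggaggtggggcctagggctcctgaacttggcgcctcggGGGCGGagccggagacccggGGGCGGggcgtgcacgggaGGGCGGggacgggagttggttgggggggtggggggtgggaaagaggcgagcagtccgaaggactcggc
The Aspn window had a GC content of 30% and that of Ogn 42%, whereas Bgn had 64.4% and Hspg2 70%, beside a median of 52.4% over 32851 promoter windows of the same length. TATAAA was found in Ogn (2 overlapping matches) and Aspn (2 matches) and in no other of the 8 windows, against 12.4% of all windows. These matches begin 229 and 227 bases before the start site in Ogn and 207 and 178 bases before it in Aspn. At these places the letters alone do not mark a working TATA box. GGGCGG was found in Bgn, Podn, Vcan and Hspg2, which had 5 matches, against 32.7% of all windows. Neither an AP-1 site (TGANTCA), a STAT palindrome (TTCNNNGAA) nor the core of the interferon-stimulated response element (GAAA and GAAA with any pair of bases between) was found in any of the 8 windows. Of all windows 6.75%, 7.02% and 2.98% hold these motifs. These matches describe letters in the windows and not binding.

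The rest of the proteoglycan system was compared in lists of related genes. Of 10 other SLRP genes 3 reached 1 RPKM in at least 1 library and 0 had a log2 ratio beyond 1 or -1. The median was 0.01 over the list and 0.16 over those 3, of which 2 were higher in KO and 1 lower. Tsku, which encodes tsukushi, a secreted inhibitor of BMP and Wnt signals, was the highest of these and had 46.5 RPKM in WT and 91.2 RPKM in KO (log2 ratio 0.96, above 1 after centring). Among 17 other secreted proteoglycans and link proteins, 5 reached 1 RPKM and 2 had a log2 ratio above 1. The median was 0.03 over the list and 0.52 over those 5, beside 0.44 over the 10 members. Of those 5 genes 4 were higher in KO and 1 lower. Adding 1 to both values keeps most entries under 1 RPKM near a log2 ratio of 0, which pulls the list medians toward 0. Prg4 encodes lubricin, the lubricating proteoglycan of joints, and had 1.88 RPKM in WT and 9.19 RPKM in KO (log2 ratio 1.82). Col18a1, a basement membrane collagen that carries heparan sulphate, had 9.60 and 21.1 RPKM, a log2 ratio of 1.06. Agrn, which encodes agrin, was the most abundant of this list with 34.6 and 49.1 RPKM. The cartilage proteoglycan gene Acan, related to Vcan, stayed at 0.104 and 0.178 RPKM.

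Of 15 cell-surface proteoglycan genes, counted with the hyaluronan receptor gene Cd44, 13 reached 1 RPKM and 1 had a log2 ratio above 1. The median was 0.05 over the list and 0.15 over those 13, of which 8 were higher in KO and 5 lower. Tgfbr3 encodes betaglycan, a co-receptor for TGF-β, and had 5.39 RPKM in WT and 19.3 RPKM in KO (log2 ratio 1.67). Sdc4, a syndecan of cell-matrix contacts and the most abundant of the list on average, had 98.5 and 183 RPKM, a log2 ratio of 0.88.

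The enzymes that build the sugar chains showed few differences of this size. None of the 6 genes for the linker sugars, of the 6 for keratan sulphate or of the 9 for hyaluronan and sulphate donors had a log2 ratio beyond 1 or -1, with medians of 0.03, -0.10 and -0.06. The most abundant of these were B3gat3 (40.8 and 40.1 RPKM), a glucuronyltransferase of the linker, B4galt1 (57.5 and 62.1 RPKM), a galactosyltransferase, and Ugdh (75.0 and 70.3 RPKM), which makes UDP-glucuronic acid. Of 16 chondroitin and dermatan sulphate genes 1 was above 1 (median -0.02). This was Csgalnact1, which starts chondroitin chains and had 2.74 RPKM in WT and 7.10 RPKM in KO (log2 ratio 1.11). Chpf, a chondroitin polymerizing factor and the most abundant of them, had 95.3 and 69.5 RPKM. Of 21 heparan sulphate genes 1 was above 1 (median 0.00). This was Hs3st1, a sulphotransferase, with 0.719 RPKM in WT and 3.21 RPKM in KO and a log2 ratio of 1.29. Sulf1, which removes sulphate from heparan sulphate outside the cell, was the most abundant with 86.4 and 72.7 RPKM.

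Among 10 proteases that cleave proteoglycans or process SLRPs, 0 had a log2 ratio beyond 1 or -1 (median 0.00). Tll1 (25.1 and 12.3 RPKM, log2 ratio -0.98) lay just short of -1 and Adamts9 (0.884 and 2.65 RPKM, 0.95) just short of 1. With a pseudocount of 0.1, 1 protease was above 1 and 1 below -1, and 1 was above 1 after centring and after quantile normalization. Bmp1, which removes the propeptide of several SLRPs, had 35.2 RPKM in WT and 43.3 RPKM in KO. Of 9 fibrillar collagen genes 0 were beyond 1 or -1, but 6 of the 8 at 1 RPKM or more were higher in KO (median of the 9 genes 0.29, and 0.11 after quantile normalization). Col5a3 (log2 ratio 0.99) and Col3a1 (0.98) lay just short of 1, and 2 collagens were above 1 after centring and 1 after quantile normalization or with a pseudocount of 0.1. Col1a1, the most abundant, had 1477 and 1874 RPKM. Of 14 growth factor and receptor genes whose products are bound by decorin, biglycan or perlecan, 1 was above 1 (median 0.04). Tlr2, a Toll-like receptor for which biglycan is a ligand, had 1.74 RPKM in WT and 7.48 RPKM in KO (log2 ratio 1.63). Tlr4, the other Toll-like receptor gene of the list, was lower in KO, with 2.65 and 1.99 RPKM (log2 ratio -0.29). Ctgf, a matrix-associated growth factor and the most abundant, had 1851 and 2050 RPKM.

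**Figure D5:**
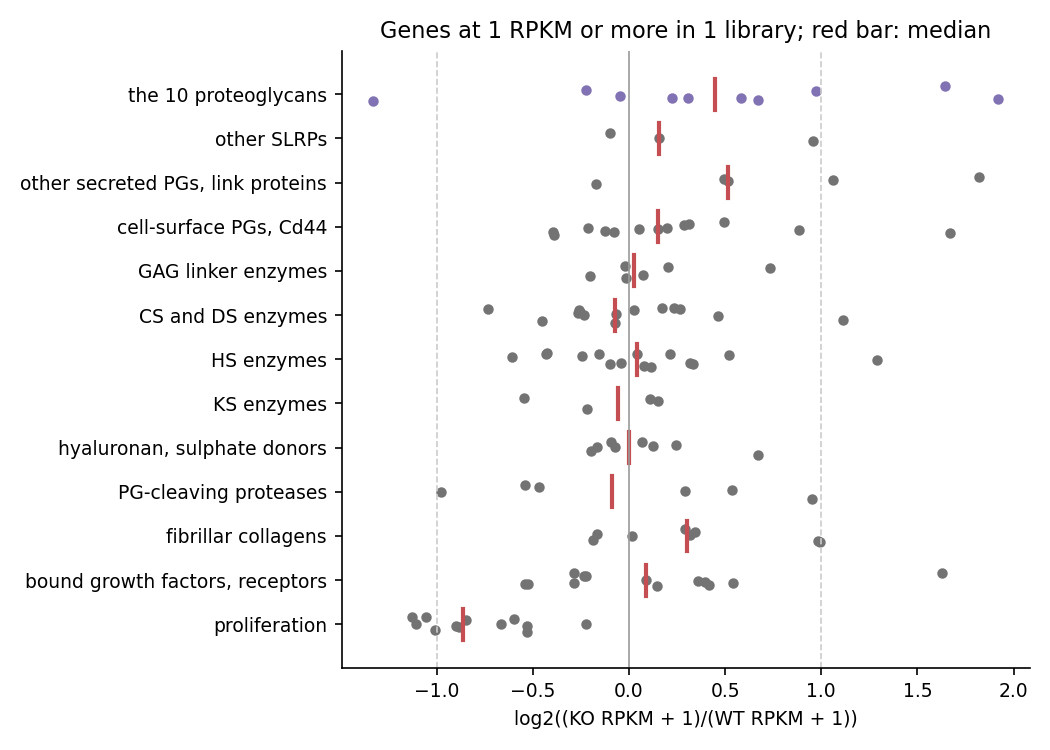
Log2 ratio of KO over WT for genes with at least 1 RPKM in 1 library, by list (PG, proteoglycan; GAG, glycosaminoglycan; CS, DS, HS and KS, chondroitin, dermatan, heparan and keratan sulphate); each point is a gene, red bars are medians of the plotted genes and dashed lines mark -1 and 1. The 10 proteoglycans spread from -1.33 to 1.92, more widely than the enzymes that build their chains; the sign of Hspg2 flips after centring.

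Markers of the cells were compared in the same way. The fibroblast markers Col1a1, Col1a2 (605 and 753 RPKM) and Col3a1 (223 and 442 RPKM) were abundant in both libraries, and Vim, an intermediate filament gene, was the highest of the list with 3151 and 2448 RPKM. Pdgfra, a growth factor receptor of mesenchymal cells, had 4.18 RPKM in WT and 13.8 RPKM in KO, the only one of 10 fibroblast markers beyond a log2 ratio of 1 or -1 (1.51). Of 10 macrophage markers, Lyz2, Cd68 and Cd14 had a log2 ratio above 1 (1.26, 1.12 and 1.10) and the other 7 lay between -1 and 1. The list summed to 20.6 RPKM in WT and 50.7 RPKM in KO, of which Lyz2 alone made up 13.9 and 34.7 RPKM. The defining markers Ptprc (0.0449 and 0.0813 RPKM) and Csf1r (0.521 and 0.775 RPKM) were low in both. Emr1 had 0.482 and 1.37 RPKM, Itgam 0.199 and 0.542 RPKM, Fcgr1 0.0123 and 0.243 RPKM and Mrc1 0.0804 and 0.0817 RPKM. C1qa, with 0.935 and 0.892 RPKM, was the only macrophage marker lower in KO. Of the 5 tendon markers, of which Fmod is one, Thbs4 was above 1 with 4.43 and 13.6 RPKM (log2 ratio 1.43)), while Scx had 11.3 and 15.0 RPKM, Tnmd 2.70 and 1.79 RPKM and Mkx 1.45 and 3.56 RPKM. The part of these cell markers in the values of Lum, Dcn and Ogn was not tested.

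Of the other 8 marker lists, 3 held a gene with a log2 ratio below -1 and 0 held one above 1. The first endothelial markers, Pecam1, Cdh5 and Tek, had at most 0.122 RPKM, and the most abundant, Kdr, had 1.01 and 0.397 RPKM. Of the epithelial markers Epcam, Cdh1 and Krt5 had at most 0.0291 RPKM, and Krt19 had 24.6 and 25.9 RPKM. The muscle regulators Myod1, Myog and Myf5 had at most 0.0216 RPKM, and Acta1 had 12.6 and 4.26 RPKM (log2 ratio -1.37)). The smooth muscle markers Acta2 (1769 and 1768 RPKM), Tagln (1318 and 1446 RPKM) and Cnn1 (83.1 and 48.4 RPKM) were abundant in both. In the same list, which includes pericyte markers, Cspg4 had 117 and 134 RPKM and Des 6.28 and 3.20 RPKM. Myh11 (0.910 and 0.714 RPKM) and Rgs5 (0.448 and 0.317 RPKM) were low in both. Of the cartilage markers Sox9 had 6.70 and 6.39 RPKM and Col2a1 had 26.7 and 23.3 RPKM. Comp had 6.33 and 5.41 RPKM, and the remaining cartilage markers found had at most 0.268 RPKM. The bone markers Runx2 (6.91 and 5.55 RPKM), Sp7 (2.85 and 1.31 RPKM) and Alpl (0.0632 and 0.0973 RPKM) were low beside Spp1 (1177 and 1788 RPKM). Of the neural markers Tubb3 had 35.9 and 36.1 RPKM, Sox2 0.0260 and 0.0689 RPKM and Nes 31.4 and 11.6 RPKM (log2 ratio -1.37)). Of the adipocyte markers Adipoq had at most 0.0274 RPKM, Fabp4 had 16.3 and 28.9 RPKM and Pparg had 4.87 and 0.745 RPKM (log2 ratio -1.75)).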

How the data were processed

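RNA sequencing of WT and NEAT1 KO MEFs was used, with 1 poly-A library per genotype, grouped by the sample titles. The authors computed and deposited RPKM values per RefSeq gene entry. The aligner and counter are not given in the sources used here. The submitters' processing notes name CASAVA 1.8, mm10 and hg18, and the mouse coordinates fit mm10 (GENCODE M21 and RefSeq, GRCm38); starts are printed 1-based.

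A pseudocount of 1 was added to the RPKM before taking log2 ratios, without filter or scaling. A log2 ratio beyond 1 or -1 was counted. With 1 library per genotype no test was made. Depth was estimated from recurring low values and exon lengths, and 95% Clopper-Pearson intervals computed from it cover counting error only. The members, lists and thresholds were chosen with earlier results of these data known. All 10 members were named. From other lists the most abundant gene, up to 5 genes beyond 1 or -1 with at least 1 RPKM, and the leading 3 cell type markers were named, as were SLRP and link protein genes next to members. Map2 and Snorc were not found among the entries. C1qa, Mrc1, Emr1, Itgam, Fcgr1, Col5a3, Tll1, Adamts9 and Tlr4 were named outside this rule after values were seen. So were Cspg4, Des, Myh11, Rgs5, Comp, Btg2, Nol8, Iars and Bicd2, and Cenpp, Gm15851 and Gm4117, which overlap members. Neat1 was named as the targeted gene. The alternatives were a pseudocount of 0.1, at least 1 RPKM in 1 library, centring on the median of expressed entries (1 RPKM or more in WT and in KO), quantile normalization, summing entries of a symbol, and thresholds of 2 and 0.58. The scripts were tested on simulated data. Python 3.11.15, numpy 2.4.6, pandas 2.3.3, scipy 1.17.1 and matplotlib 3.10.9 were used.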

Additional observations from a re-analysis of the deposited data

How the results depend on the processing

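No paired analysis was possible because each genotype has 1 library, and for the same reason no library could be left out. Of the 50 recomputed log2 ratios of the members, 20 could not move, because each member is above 1 RPKM and has 1 entry. The other 30 moved by less than 0.58, the largest move being 0.31 for Bgn under quantile normalization. Centring subtracts the same median, -0.06, from every log2 ratio, so its moves had to stay under that limit. With the threshold at 2 in place of 1, 0 members were above it and 0 below its negative. With the threshold at 0.58, 5 members were above (Lum, Dcn, Podn, Vcan and Fmod) and 1 below, beside 2.4% and 2.58% of all entries. The number above 1 was 3, with Podn added, under a pseudocount of 0.1, centring and quantile normalization, and Ogn alone was below -1 under each of these. Of 375 values recomputed for the other lists, 75 came from summing entries and could not move. Counts under the filter of 1 RPKM and medians under centring were bound to stay the same as well. In all 27 values moved, 16 of them with the pseudocount of 0.1, which weighs low entries more. Some list medians near 0 changed sign. The median of the chondroitin and dermatan sulphate genes went from -0.02 to 0.04 after centring. That of the neural markers went from 0.01 to -0.68 with at least 1 RPKM in 1 library. Of 12 proliferation genes 2 in place of 4 were below -1 after centring and after quantile normalization, and of 10 macrophage markers 6 in place of 3 were above 1 with a pseudocount of 0.1. The estimated depth limits little at these levels, but it says nothing about differences between cultures.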

Other observations

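The human counterparts of the 10 genes were also looked up in the VCaP prostate cancer libraries of the same series. Those libraries were made after removal of ribosomal RNA and list 25932 entries on another build, so their levels cannot be set against those of the fibroblasts. In the library labelled VCaP, HSPG2 had 2.66 RPKM and the other 9 genes had at most 0.118 RPKM (ASPN), with FMOD, OGN and PODN listed at 0. In the library labelled VCaP ERα, FMOD was the highest with 1.89 RPKM, followed by HSPG2 (0.886 RPKM), BGN (0.830 RPKM), PRELP (0.662 RPKM) and PODN (0.529 RPKM). LUM had 0.0688 and 0.315 RPKM in these libraries, DCN had 0.0566 RPKM in the former and was listed at 0 in the latter, and OGN was listed at 0 in both. BGN ranked 16477 of the entries in VCaP and 12895 in VCaP ERα. An entry listed at 0, such as OGN, ranked 17176 in VCaP and 22326 in VCaP ERα, so fewer entries were at 0 in VCaP ERα. Low values and ranks therefore differ between these libraries beyond the 10 genes, and no change with ERα is read from them.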
